A study of Mus musculus with 60 samples.

Results

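The 9 genes described here mark the making and packaging of the inhibitory transmitter GABA and the transcription factors that set GABAergic fate in the embryonic midbrain. They are Gad1, Gad2, Slc32a1, Helt, Gata2, Tal2, Tal1, Gata3 and Sox14. They were chosen by name, with earlier results of these data known. Each matched 1 of the 24378 features of the deposited expression table. Levels were measured by bulk RNA sequencing of 5 brain regions at 4 embryonic stages, with 3 libraries per region and stage and 60 in all. The ventral midbrain is compared with dorsal midbrain, alar plate, ventral forebrain and ventral hindbrain, each at daily stages, E11.5 to E14.5. All embryos, in every group, carried the TH-GFP transgene, a fluorescent reporter of the dopaminergic enzyme tyrosine hydroxylase that was used to guide dissection. The labels give no other allele or treatment. The ventral midbrain pieces took in floor and basal plate, domains M3 to M7, so they hold dopaminergic, GABAergic and other cells together. Whether each library is a different embryo or a pool is not given in the labels, so p-values measure the spread between libraries only.

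GABA is made from glutamate by the 2 glutamate decarboxylases, encoded by Gad1 and Gad2, and is loaded into synaptic vesicles by the vesicular transporter encoded by Slc32a1. In the mouse midbrain, Helt acts in dividing precursors, and Gata2 and Tal2 act as precursors leave the cell cycle. Loss of any of these 3 factors turns midbrain GABAergic precursors towards glutamatergic fate. Tal1 and Gata3, relatives of Tal2 and Gata2, act in the young neurons there and in the ventral hindbrain. Sox14 marks subsets of GABAergic precursors in the midbrain and the rostral thalamus. In the telencephalon and hypothalamus, GABAergic fate rests largely on Dlx factors instead. Tal1, Gata2 and Gata3 also act in blood and vessel cells, so markers of those cells are given beside them.

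The genes lie on 5 chromosomes of the mm10 mouse genome, with spans from the GENCODE annotation of that build. On chromosome 2 are Gad1 (70553072 to 70602014, plus strand), Gad2 (22622205 to 22693874, plus), Slc32a1 (158610767 to 158615748, plus) and Gata3 (9857078 to 9890034, minus). On chromosome 4 are Tal2 (53779705 to 53788712, plus) and Tal1 (115056426 to 115071755, plus). Helt is on chromosome 8 (46292039 to 46294671, minus), Gata2 on chromosome 6 (88193891 to 88207032, plus) and Sox14 on chromosome 9 (99874106 to 99876170, minus). Gad1, Gad2, Slc32a1 and Gata3 overlap other annotated genes: Gad1os, Gm14205 and Gm13256 run antisense to Gad1, Slc32a1 and Gata3, the microRNA genes Mir3967 and Gm23636 lie within Gad2, and 4930412O13Rik and 9230102O04Rik overlap Gata3. Whether reads were counted by strand is not given in the sources used here, so reads of such pairs cannot be told apart. The other 5 genes overlap no annotated gene.

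Promoter windows of 300 bases, from 250 before the start to 50 after it, were found in RefSeq (GRCm38.p6) for all 9 genes, with a pair of starts for Gata2 and for Tal1. The stretches ahead of Helt and Tal2 are shown because these genes had the dorsal midbrain pattern described below. Tal1 is shown for its match to the letters read by GATA factors, Gad1 for its pair of matches, and Slc32a1 because a second gene starts close by on the other strand. Capitals mark TATAAA in Tal2 and Gad1, the letters TAATCC in Gad1 and a match to AGATAA in Tal1, on either strand, and only bases that overlap no annotated exon are printed.

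Helt, chr8:46294672-46294921, minus strand: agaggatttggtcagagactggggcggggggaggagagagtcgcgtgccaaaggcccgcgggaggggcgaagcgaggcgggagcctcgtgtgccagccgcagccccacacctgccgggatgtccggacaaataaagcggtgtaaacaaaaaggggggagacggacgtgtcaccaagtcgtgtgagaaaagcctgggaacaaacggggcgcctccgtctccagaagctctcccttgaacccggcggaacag
Tal2, chr4:53779451-53779700, plus strand: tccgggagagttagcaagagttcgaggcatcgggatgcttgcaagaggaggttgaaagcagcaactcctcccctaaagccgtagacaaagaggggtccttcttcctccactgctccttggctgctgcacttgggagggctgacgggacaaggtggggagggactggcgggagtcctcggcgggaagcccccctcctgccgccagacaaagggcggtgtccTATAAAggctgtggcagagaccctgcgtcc
Tal1, first start, chr4:115056176-115056425, plus strand: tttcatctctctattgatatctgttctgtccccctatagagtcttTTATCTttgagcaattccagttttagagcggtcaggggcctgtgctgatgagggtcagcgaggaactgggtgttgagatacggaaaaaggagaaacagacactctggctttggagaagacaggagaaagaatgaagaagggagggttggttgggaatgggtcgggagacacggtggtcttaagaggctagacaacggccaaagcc
Gad1, chr2:70561879-70562041, plus strand: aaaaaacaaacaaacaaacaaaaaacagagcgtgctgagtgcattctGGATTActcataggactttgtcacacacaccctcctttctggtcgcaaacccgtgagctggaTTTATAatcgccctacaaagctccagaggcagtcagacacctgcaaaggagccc
Slc32a1, chr2:158610724-158610757, plus strand: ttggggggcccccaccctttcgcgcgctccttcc

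TATAAA was present on either strand in the windows of Tal2 and Gad1, and in 13.6% of 32851 mouse promoter windows of this length. TAATCC, the core read by Otx factors, was found in the Gad1 window and in 7.1% of all windows. AGATAA, a core read by GATA factors, was found once at the first Tal1 start, against 11.2% of all windows. TAATTA stood after the Helt start, in a part not printed, and in 5.3% of all windows. Of the E-box spellings CAGATG (17.2% of all windows) and CAGCTG (16.3%), the first stood in the windows of Gad2 and of the first Tal1 start, and the second in those of Gata3 and the second Gata2 start. Each is a match of letters in these windows and no measure of binding.

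Depth per library, as recovered from the deposited values, ran from 1580061 to 6431836 reads at E11.5, 8671033 to 13098974 reads at E12.5, 4973179 to 23581725 reads at E13.5 and 979197 to 6130311 reads at E14.5. Library names carry a run prefix. E12.5 and E13.5 have a prefix each, and E11.5 and E14.5 have 2 prefixes each that differ between regions, of which 1 is shared by dorsal midbrain at E11.5 and by ventral forebrain, alar plate and ventral hindbrain at E14.5. No region has the same prefix at any pair of stages, so stage and run cannot be told apart within a region. At E11.5 dorsal midbrain has a prefix of its own. At E14.5 ventral and dorsal midbrain share a prefix that the other regions lack. Region and run cannot be told apart in comparisons across those prefixes. Of the 60 libraries, 15 resembled the mean of another region at their stage more than the other 2 libraries of their own: 7 at E11.5, 5 at E12.5, none at E13.5 and 3 at E14.5. Those at E11.5 were every alar plate library, ventral midbrain 4, ventral forebrain 2 and 4 and ventral hindbrain 2. Those at E12.5 were every alar plate library, dorsal midbrain 3 and ventral forebrain 1. Those at E14.5 were dorsal midbrain 2 and alar plate 2 and 3. The library labelled ventral midbrain 4 at E11.5 held 9.07 RPKM of Foxa2, a floor plate and dopaminergic factor, against 72.1 and 71.0 RPKM in the libraries labelled 2 and 6. Its Th was 2.37 RPKM, against 13.2 and 17.2 RPKM. Ventral midbrain libraries of later stages held 30.2 to 78.5 RPKM of Foxa2 and 60.7 to 98.1 RPKM of Th. Results that rest on this library are given with and without it. RPKM is reads per kilobase of transcript, scaled to the depth of the library, and library values below are given in the order of library number.

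At E12.5, genes for GABA synthesis and packaging were lower in the ventral midbrain than in the mean of the 4 other regions. Gad1 was at 2.15, 4.37 and 4.93 RPKM in ventral midbrain. It was at 12.8, 15.3 and 18.6 RPKM in dorsal midbrain, 24.1, 23.8 and 11.6 in alar plate, 11.1, 27.3 and 21.7 in ventral forebrain, and 32.8, 30 and 25.8 in ventral hindbrain. Every ventral midbrain library lay below all 12 others. The log2 fold change of Gad1 against the mean of the 4 other regions was -2.18 ± 0.27 (standard error, limma on log2(RPKM + 1), adjusted p = 0.00012).

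Slc32a1 showed the same order at E12.5, with 3.06, 6.76 and 6.19 RPKM in ventral midbrain and 7.17 to 36.4 RPKM in the other 12 libraries, without overlap (log2 fold change -1.79 ± 0.34, limma adjusted p = 0.0034). Gad2 had 5.12, 7.45 and 7.94 RPKM in ventral midbrain, which overlapped the dorsal midbrain libraries at 7.06, 9.28 and 30.2 RPKM. Its log2 fold change against the 4 regions was -1.49 ± 0.32 (limma adjusted p = 0.0078), and the call was lost without ventral midbrain library 1 (-1.32, adjusted p = 0.066). Dorsal midbrain library 3, with 30.2 RPKM of Gad2 and 24.7 RPKM of Slc32a1, resembled the alar plate more than its own region. Dorsal midbrain libraries 1 and 2 held 7.17 and 11 RPKM of Slc32a1. The highest mean of all 3 genes at E12.5 was in ventral hindbrain, at 29.5 ± 3.5 RPKM for Gad1, 31.9 ± 7.34 for Gad2 and 34.4 ± 1.96 for Slc32a1 (SD, n = 3 each). For Slc32a1 the 3 ventral hindbrain libraries lay above all others, whereas for Gad1 and Gad2 their range overlapped that of the next region, the ventral forebrain.

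**Figure D1:**
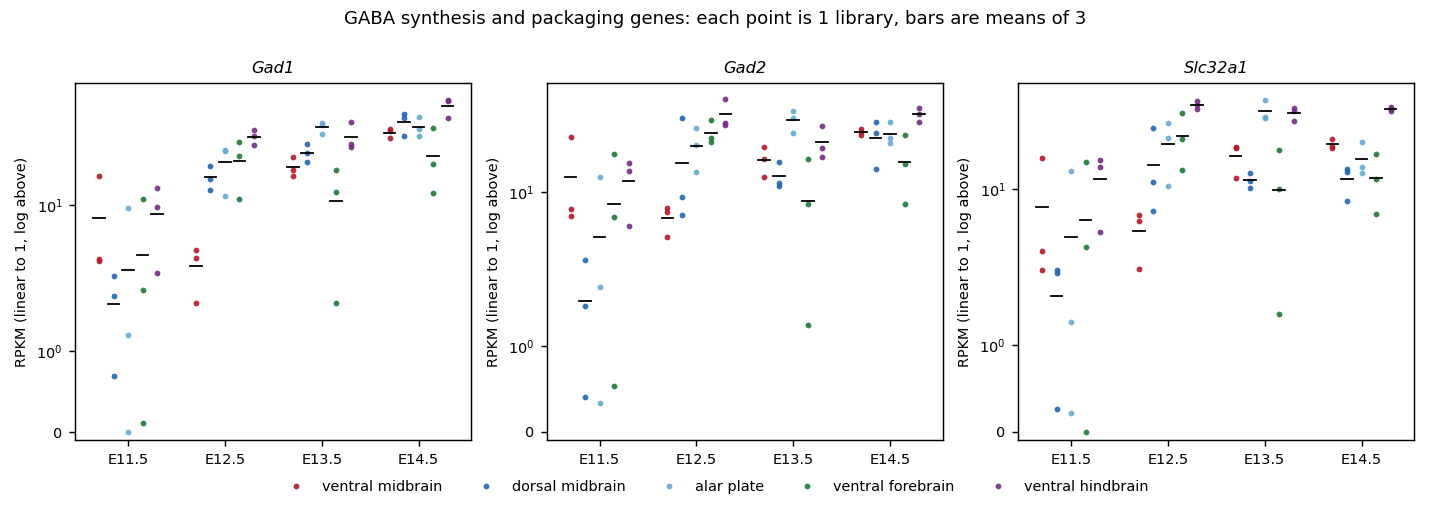
RPKM of Gad1, Gad2 and Slc32a1 in each library (points) with the mean of 3 (bars), by region and stage; the vertical axis is linear to 1 and logarithmic above. At E12.5 the ventral midbrain libraries hold 2.15 to 4.93 RPKM of Gad1, below every other library of that stage.

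One day later the gap from the mean of the 4 other regions was no longer called. At E13.5, Gad1 was at 16.0, 21.4 and 17.5 RPKM in ventral midbrain, against 2.15 (a ventral forebrain library) to 37.2 RPKM (a ventral hindbrain library) in the other regions. Ventral midbrain still lay below every alar plate library (31 to 37 RPKM) and every ventral hindbrain library (25.2 to 37.2 RPKM). For Slc32a1, ventral midbrain held 11.8 to 18.6 RPKM, below alar plate (28.3 to 37.1) and ventral hindbrain (27.1 to 33.1). Gad2 lay below alar plate and overlapped ventral hindbrain. Limma called none of these differences from single regions. Dorsal midbrain and ventral forebrain overlapped ventral midbrain in Gad1. The log2 fold change against the 4 other regions was -0.20 ± 0.36 for Gad1, 0.10 ± 0.39 for Gad2 and -0.07 ± 0.39 for Slc32a1 (limma adjusted p = 0.73, 0.89 and 0.92). Within ventral midbrain, Gad1 rose to these E13.5 values against 2.15, 4.37 and 4.93 RPKM at E12.5 (log2 fold change 2.04 ± 0.39, limma adjusted p = 0.034). That call was lost without any 1 of the 6 ventral midbrain libraries compared (log2 fold change 1.76 to 2.22, adjusted p 0.071 to 0.16). At the same log2 fold change of 2.04 it was also lost with no filter (adjusted p = 0.052), with a replicate block (0.215) and in 1 fit of all 60 libraries (0.305). Gad2 and Slc32a1 had log2 fold changes of 1.14 ± 0.33 and 1.47 ± 0.44 over the same day (adjusted p = 0.095 and 0.10). Limma-voom on recovered reads called all 3, at 2.32 for Gad1, 1.28 for Gad2 and 1.68 for Slc32a1 (adjusted p = 0.002, 0.012 and 0.0072), and so did limma without the E11.5 library 4, which shares the fit (adjusted p = 0.0022, 0.01 and 0.014). The E12.5 and E13.5 libraries also differ in run prefix, whose part in the change was not tested.

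Setting the ventral midbrain change from E12.5 to E13.5 against the mean change of the other regions, Gad1 differed by 1.98 ± 0.47 on the log2 scale (limma adjusted p = 0.27), Slc32a1 by 1.72 ± 0.55 (adjusted p = 0.87) and Gad2 by 1.59 ± 0.54 (adjusted p = 0.92). None of the 9 genes was called, with 5 at an unadjusted p below 0.05, and limma-voom on recovered reads also called 0. Over all genes 0% were called, and 585 of 13994 had an unadjusted p below 0.05.

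By E14.5 the ventral midbrain ranges of Gad1 and Gad2 overlapped those of dorsal midbrain, alar plate and ventral forebrain. Gad1 reached 28.9, 32.3 and 33.5 RPKM in ventral midbrain, 42.7, 39.7 and 30.1 in dorsal midbrain, 40.2, 29.9 and 33.3 in alar plate, 33.9, 19.3 and 12.2 in ventral forebrain, and 40.1, 52.9 and 51.7 in ventral hindbrain. Only in ventral hindbrain did every library lie above all ventral midbrain ones, and that difference was not called (log2 fold change -0.59 ± 0.26, limma adjusted p = 0.48). Slc32a1 was at 18.8, 20.8 and 18.2 RPKM in ventral midbrain, against 31.4, 32.3 and 33.4 RPKM in ventral hindbrain (log2 fold change -0.72 ± 0.24, adjusted p = 0.27). Averaged over the 4 stages, Slc32a1 was higher in ventral hindbrain than in the other 4 regions by 1.27 ± 0.27 on the log2 scale (limma adjusted p = 0.00021).

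Against E11.5, the 3 genes rose by E14.5 in the midbrain and hindbrain pieces. In ventral midbrain, Gad1 was at 28.9, 32.3 and 33.5 RPKM at E14.5, against 4.16, 16.0 and 4.31 RPKM at E11.5, where the high value belongs to library 4 (log2 fold change 2.07 ± 0.39, limma adjusted p = 0.00063). Without library 4 the log2 fold change of Gad1 was 2.64 (adjusted p = 2e-06). Slc32a1 rose by 1.54 ± 0.44 (adjusted p = 0.0093) and, without library 4, by 2.17. Gad2 rose by 1.10 ± 0.33 (adjusted p = 0.013), by 1.60 without library 4, and was not called without E11.5 library 2 or 6 (0.82 and 0.89, adjusted p = 0.055 and 0.059). Gad1 also rose in dorsal midbrain (3.71 ± 0.28), alar plate (3.60 ± 0.65), ventral hindbrain (2.48 ± 0.33) and ventral forebrain (2.53 ± 0.83). Every alar plate library at E11.5 resembled another region more than its own. The forebrain call was lost without E11.5 library 2 or 6 or E14.5 library 2 or 3 (log2 fold change 1.67 to 2.55, adjusted p 0.058 to 0.10).

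Gad1 and Gad2, which make the same product, changed places per unit length. Gad1 was below Gad2 in 13 of 15 libraries at E11.5 and in 10 of 15 at E12.5, and above it in 15 of 15 at both E13.5 and E14.5. In ventral midbrain the order was the same in each of 3 libraries at every stage: Gad1 below Gad2 at E11.5 and E12.5, and above at E13.5 and E14.5. At E12.5, for example, library 1 held 2.15 RPKM of Gad1 and 5.12 of Gad2, and at E14.5 library 2 held 28.9 RPKM of Gad1 and 23.3 of Gad2. Reads of Gad1os could count towards Gad1 in any of these libraries. Run prefix also differs between E12.5 and E13.5 in every region, and its part in the order was not tested.

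**Figure D2:**
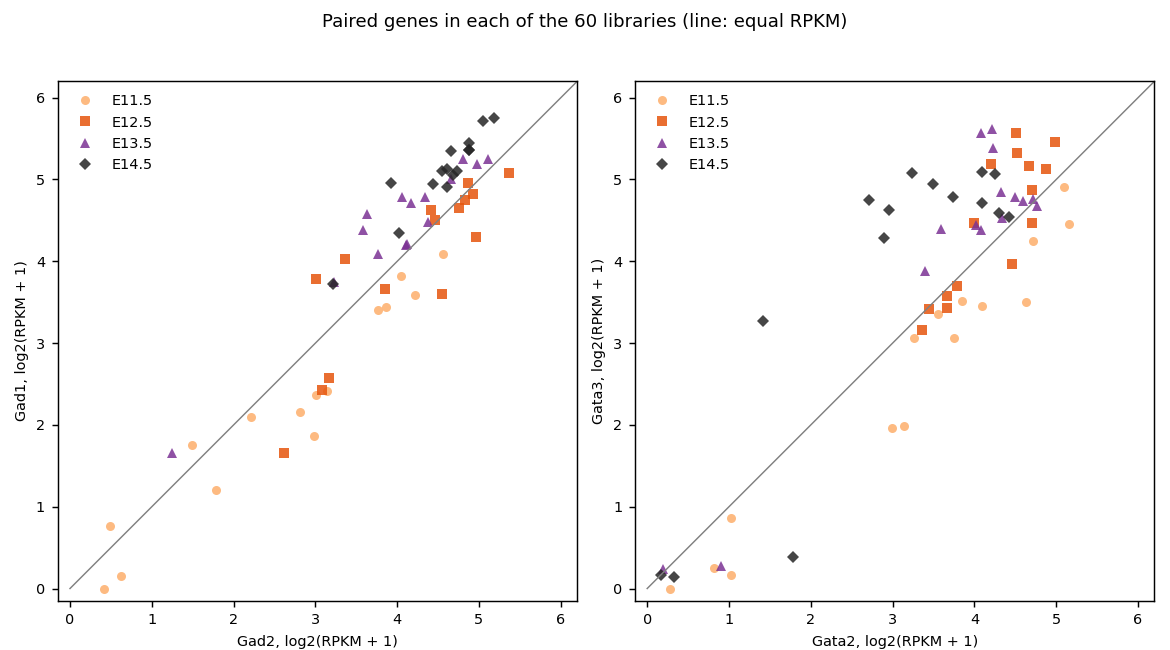
Gad1 against Gad2 (left) and Gata3 against Gata2 (right), as log2(RPKM + 1) in each of the 60 libraries, with stages by symbol and a line where the 2 genes have equal RPKM. All 30 libraries of E13.5 and E14.5 lie above the line for Gad1 and Gad2, and all 15 of E11.5 lie below it for Gata3 and Gata2.

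Helt, the bHLH factor of dividing GABAergic precursors, had its highest mean in dorsal midbrain from E12.5 onwards. In ventral midbrain it was at 7.64, 15.3 and 6.76 RPKM at E11.5, 1.63, 0.98 and 3.26 at E12.5, 1.11, 2.65 and 1.80 at E13.5, and 0.618, 0.985 and 0.735 at E14.5. In dorsal midbrain the same stages gave 10.5, 4 and 1.66, then 13.6, 14.8 and 5.91, then 17.7, 16.8 and 18.6, then 12.2, 11.4 and 12.3 RPKM. The ventral and dorsal midbrain ranges overlapped at E11.5 and at no later stage.

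Ventral midbrain was lower than dorsal midbrain in Helt, with log2 fold changes of -2.06 ± 0.32 at E12.5, -2.75 ± 0.29 at E13.5 and -2.87 ± 0.30 at E14.5 (limma adjusted p = 0.00084, 6.7e-06 and 1.5e-05). The E14.5 ventral midbrain values rest on 3, 2 and 2 reads, at or below the floor of 3 reads (0.618, 1.48 and 1.1 RPKM), against 38, 52 and 55 reads in dorsal midbrain. It was lower than the alar plate as well, with log2 fold changes of -1.69 ± 0.32, -1.57 ± 0.29 and -1.74 ± 0.30 at those stages (adjusted p = 0.0037, 0.0025 and 0.0018). With a pseudocount of 0.1 the E13.5 difference from alar plate was -1.99 with an adjusted p of 0.093. Every E12.5 alar plate library resembled another region more than its own. Within ventral midbrain Helt fell at E14.5 against E11.5, with a log2 fold change of -2.54 ± 0.33 (limma adjusted p = 3.4e-05), and -2.21 without E11.5 library 4.

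Helt was near the limit of detection in ventral hindbrain. There it had 11.3, 0 and 0 RPKM at E11.5, 0.121, 0.0544 and 0.155 at E12.5, 0.113, 0.0439 and 0.0573 at E13.5, and 0.568, 0 and 0 at E14.5. The value of 11.3 RPKM came from library 2 of E11.5, 1 of the 15 that resembled another region more (the alar plate), and the other 11 libraries held 0 to 4 reads each. The 0 values allow up to 0.584 RPKM at E11.5 and 0.413 RPKM at E14.5, which is the worth of 3 reads. Ventral midbrain was higher than ventral hindbrain by 1.34 ± 0.32 at E12.5 and 1.38 ± 0.29 at E13.5 on the log2 scale (limma adjusted p = 0.034 and 0.012). The E12.5 call was lost without ventral midbrain library 1 or 3 or any 1 ventral hindbrain library (1.04 to 1.39, adjusted p 0.080 to 0.16), and the E13.5 call without ventral midbrain library 5 (1.18, adjusted p = 0.053).

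Tal2, the bHLH factor required for GABAergic neurons of the dorsal midbrain, had the widest range of the 9 genes. In ventral midbrain it was at 44.9, 163 and 46.6 RPKM at E11.5, 10.2, 9.50 and 16.0 at E12.5, 6.95, 14.3 and 8.58 at E13.5, and 5.14, 6.46 and 5.79 at E14.5. In dorsal midbrain it was at 91.2, 86.1 and 41.9 RPKM at E11.5, 192, 189 and 139 at E12.5, 184, 209 and 177 at E13.5, and 159, 156 and 214 at E14.5. Ventral and dorsal midbrain overlapped at E11.5 and were far apart from E12.5.

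The log2 fold change of Tal2 in ventral over dorsal midbrain was 0.02 ± 0.91 at E11.5 (limma adjusted p = 0.99), and -0.59 without ventral midbrain library 4. It was -3.77 ± 0.45 at E12.5, -4.18 ± 0.76 at E13.5 and -4.69 ± 0.68 at E14.5 (adjusted p = 9.2e-05, 0.00046 and 0.00019). Ventral midbrain also lay below every alar plate library at E12.5 (105, 83.1 and 37.5 RPKM) and at E14.5 (20.8, 89.4 and 67.5 RPKM). The E12.5 alar plate libraries each resembled another region more than their own. Against alar plate the log2 fold change of ventral midbrain was -2.47 ± 0.45 at E12.5, -2.67 ± 0.76 at E13.5 and -2.92 ± 0.68 at E14.5 (limma adjusted p = 0.0026, 0.034 and 0.013). The E13.5 call was lost without any 1 of the 3 ventral midbrain libraries or alar plate library 5 or 6 (-2.94 to -2.45, adjusted p 0.050 to 0.11), and the E14.5 call without alar plate library 3 or 4 (-2.71 to -2.51, adjusted p 0.060 to 0.069).

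Within ventral midbrain, Tal2 fell at E14.5 against E11.5, with a log2 fold change of -3.39 ± 0.42 (limma adjusted p = 2.5e-05), and -2.79 without E11.5 library 4. In dorsal midbrain it rose by 1.32 ± 0.25 (adjusted p = 0.00092), but by 0.97, under the threshold of 1, without E11.5 library 6. In alar plate Tal2 was at 20.8, 89.4 and 67.5 RPKM at E14.5, against 1.80, 6.11 and 1.55 RPKM at E11.5 (log2 fold change 3.79 ± 0.57, adjusted p = 0.00068). Every E11.5 alar plate library resembled another region more than its own, libraries 2 and 6 the ventral hindbrain and 4 the dorsal midbrain. The part of this in the alar plate change was not tested. Averaged over stages, dorsal midbrain was higher than the other regions in Tal2 by 3.67 ± 0.31 and in Helt by 2.06 ± 0.22 (limma adjusted p = 7.6e-13 and 1.2e-10). Ventral hindbrain was lower than the other regions, with log2 fold changes of -2.69 ± 0.31 for Tal2 and -1.76 ± 0.22 for Helt (adjusted p = 1.1e-08 and 4e-08). Over the 20 group means of log2(RPKM + 1), Tal2 and Helt had a Pearson correlation of 0.96, over groups that share stages, runs and depth. The stretch ahead of Tal2 printed above holds TATAAA and that ahead of Helt does not.

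**Figure D3:**
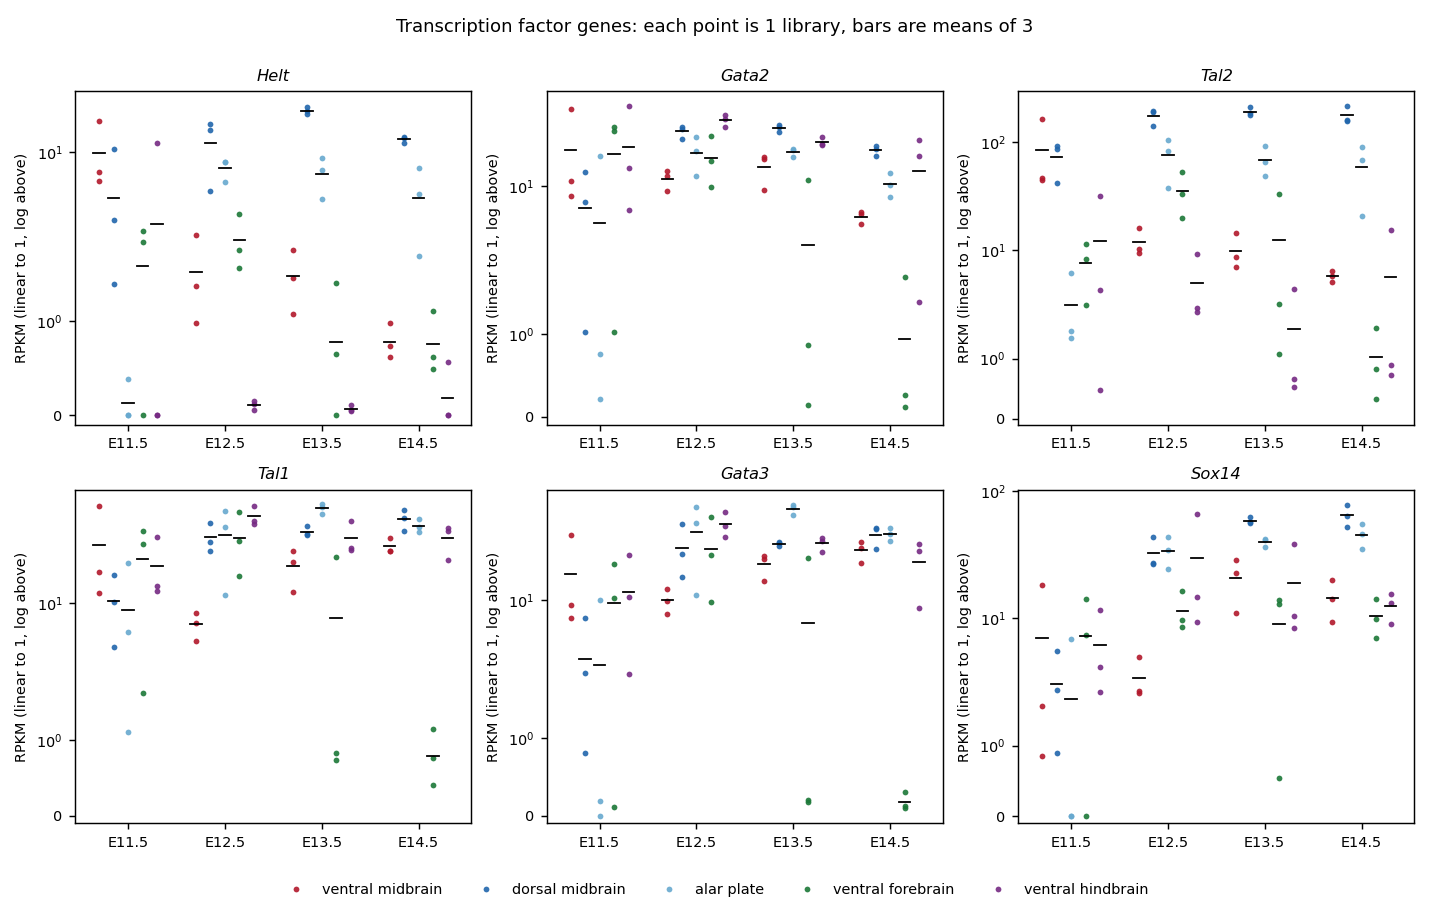
RPKM of the 6 transcription factor genes in each library (points) with the mean of 3 (bars), by region and stage; the vertical axes are linear to 1 and logarithmic above. Helt and Tal2 are highest in dorsal midbrain from E12.5, while Tal1 and Gata3 are at 0.104 to 1.20 RPKM in ventral forebrain at E14.5.

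Gata2, the zinc-finger selector of midbrain GABAergic fate, was measured in the same libraries. It was at 8.56, 33.3 and 10.8 RPKM in ventral midbrain at E11.5, 9.25, 12.8 and 11.7 at E12.5, 9.50, 15.9 and 15.2 at E13.5, and 5.53, 6.73 and 6.46 at E14.5. In dorsal midbrain the E11.5 libraries 4 and 6 held 7.81 and 1.04 RPKM, while library 2 lay within the ventral midbrain range, so the groups overlapped at E11.5. Later dorsal midbrain values were 21.0, 25.1 and 24.4, then 23.2, 26.2 and 25.2, then 16.0, 18.0 and 18.7 RPKM. From E12.5 every dorsal library lay above every ventral one. Ventral midbrain was lower at E12.5, with a log2 fold change of -1.01 ± 0.25 (limma adjusted p = 0.012), a call lost without ventral midbrain library 1 or dorsal midbrain library 2 or 3 (-0.98 to -0.89). At E14.5 the log2 fold change was -1.36 ± 0.59 (adjusted p = 0.081). Gata2 also fell in ventral midbrain at E14.5 against E11.5, with a log2 fold change of -1.12 ± 0.37 (adjusted p = 0.022), but -0.56 without E11.5 library 4, and it was not called without E14.5 library 2 (-1.05, adjusted p = 0.062).

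Tal1 and Gata3, the later pair, were near 0 in ventral forebrain at E14.5 while Gad1 was not. Tal1 was at 30, 24.1 and 23.8 RPKM in ventral midbrain at that stage, against 0.753, 1.20 and 0.403 RPKM in ventral forebrain. Gata3 was at 25.9, 23.8 and 18.5 RPKM in ventral midbrain, against 0.121, 0.308 and 0.104 RPKM. These groups did not overlap, and the ventral forebrain libraries still held 33.9, 19.3 and 12.2 RPKM of Gad1. The log2 fold change of ventral midbrain over ventral forebrain was 3.93 ± 0.21 for Tal1 and 4.32 ± 0.28 for Gata3 (limma adjusted p = 2.4e-08 and 2.5e-07). These regions also differ in run prefix at E14.5. The same ventral forebrain libraries held 95.7, 58.2 and 47.5 RPKM of Dlx1, a forebrain GABAergic factor, against 0.117, 0.279 and 0.417 RPKM in ventral midbrain.

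Ventral forebrain libraries of one stage differed from each other in these factors. At E13.5, library 5 held 21.7 RPKM of Tal1, 20 of Gata3 and 11.1 of Gata2, against 0.733 and 0.828, 0.206 and 0.177, and 0.876 and 0.141 RPKM in libraries 4 and 6. That library also held 22.6 RPKM of Gbx2, a thalamic and hindbrain factor, against 0.438 and 0.317 RPKM in the other 2. At E12.5 Gbx2 was at 116, 9.27 and 5.68 RPKM and Nkx2-1, a hypothalamic and basal telencephalic factor, at 0.0357, 0.561 and 13.9 RPKM, while at E14.5 Nkx2-1 was at 48.3 to 80.5 RPKM. The share of thalamic and hypothalamic tissue in each piece was not tested. At E13.5, ventral midbrain was higher than ventral forebrain in Gata2 by 2.27 ± 0.58 and in Gata3 by 2.60 ± 0.76 (limma adjusted p = 0.019 and 0.036), and without forebrain library 5 by 3.28 and 3.98. These calls were lost without forebrain library 4 or 6 or ventral midbrain library 5 or 6, and for Gata3 also ventral midbrain library 4 (Gata2 1.58 to 2.17, adjusted p 0.059 to 0.084; Gata3 1.90 to 2.77, adjusted p 0.067 to 0.16). Tal1 had a log2 fold change of 2.20 ± 0.70 (adjusted p = 0.050), and 3.42 without library 5 (adjusted p = 1.7e-06).

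At E12.5 Tal1 was lowest in ventral midbrain, at 5.28, 7.15 and 8.49 RPKM, below the 11.4 to 51.6 RPKM of all 12 other libraries (log2 fold change -2.03 ± 0.35, limma adjusted p = 0.0019). Gata3 was at 7.93, 12 and 9.77 RPKM in ventral midbrain, and 9.65 to 46.4 RPKM elsewhere, with some overlap (log2 fold change -1.29 ± 0.41, adjusted p = 0.064). On the log2 scale, ventral midbrain at E14.5 stood above the mean of the other 4 regions by 0.67 ± 0.16 for Tal1 and 0.99 ± 0.22 for Gata3 (adjusted p = 0.014 and 0.0095). Both fell short of the log2 threshold of 1, and limma-voom on recovered reads gave 1.05 for Tal1 and 1.64 for Gata3 (adjusted p = 0.0029 and 0.0066). The ventral forebrain is the low region in that mean. Tal1 was at 26 ± 3.48 RPKM in ventral midbrain, against 40.9 ± 7.16 in dorsal midbrain, 36.7 ± 4.11 in alar plate and 29.9 ± 8.21 in ventral hindbrain (SD, n = 3 each).

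Tal1 and Tal2, bHLH relatives, also changed places in ventral midbrain. Per unit length Tal1 was below Tal2 in 3 of 3 ventral midbrain libraries at E11.5 and at E12.5, and above it in 3 of 3 at E13.5 and at E14.5. In dorsal midbrain Tal1 was below Tal2 in all 12 libraries. Gata3 was below Gata2 in 15 of 15 libraries at E11.5 and above it in 8, 13 and 13 of 15 at E12.5, E13.5 and E14.5. Some of these orders rest on few reads. Alar plate libraries 4 and 6 of E11.5 held 1 and 0 reads of Gata3, against 4 and 3 of Gata2. Ventral forebrain library 2 of E14.5, counted as above, held 1 read of each (0.121 RPKM of Gata3 and 0.12 of Gata2). In ventral midbrain Gata3 was above Gata2 in 3 of 3 libraries at E13.5 and at E14.5. The correlation of Tal1 with Gata3 over the 20 group means was 0.95. Reads of the 3 genes that overlap Gata3 could count towards it. Stages also differ in run prefix within every region, whose part in these orders was not tested.

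Markers of the blood and vessel cells that also use these factors were measured in the same libraries. Gata1, an erythroid factor, reached 7.40 RPKM in 1 ventral forebrain library at E11.5 and was at most 0.269 RPKM in any later library. Klf1, another, was at most 4.65 RPKM at E11.5 and 0.822 RPKM later. The 11 erythroid genes found of 12 listed summed to 1989 to 20964 RPKM per library at E11.5 and to 133 to 558 RPKM at E14.5. The 10 endothelial genes summed to 73.3 to 97.4 RPKM in ventral forebrain at E14.5, where Tal1 was at most 1.20 RPKM, and to 68.9 to 77.6 RPKM in ventral midbrain. Cdh5 and Kdr, which encode an endothelial cadherin and a receptor for vascular growth factor, were above 2 RPKM in every library. The 6 mast cell and megakaryocyte genes summed to 4.98 to 54.0 RPKM. The part of blood and vessel cells in the levels of these factors was not tested, at E11.5 or at any later stage. Fewer cells of a type cannot be told apart from less RNA per cell in such bulk pieces.

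Sox14, an HMG-box factor of GABAergic subsets, had its highest means in dorsal midbrain and alar plate from E12.5. It was at 2.66, 4.96 and 2.59 RPKM in ventral midbrain at E12.5, against 27.3, 43.8 and 26.7 in dorsal midbrain, 34.2, 43.5 and 24.5 in alar plate, 9.63, 16.3 and 8.50 in ventral forebrain, and 66.0, 14.6 and 9.34 in ventral hindbrain. Ventral midbrain lay below every other library (log2 fold change -2.45 ± 0.42, limma adjusted p = 0.0017). The ventral hindbrain library 1 stood well above its partners. At E14.5 ventral midbrain held 9.32, 14.1 and 19.9 RPKM, against 77.1, 63.6 and 52.6 RPKM in dorsal midbrain (log2 fold change -2.12 ± 0.28, adjusted p = 8.3e-05) and 35.3, 54.7 and 46.0 RPKM in alar plate (-1.62 ± 0.28, adjusted p = 0.0017). Sox14 rose by E14.5 against E11.5 in dorsal midbrain by 4.17 ± 0.35 and in alar plate by 4.52 ± 0.63 (limma adjusted p = 7.6e-06 and 0.00049). The E11.5 alar plate libraries each resembled another region more than their own. In ventral midbrain the log2 fold change of Sox14 was 1.64 ± 0.69 (adjusted p = 0.057), and 2.64 without E11.5 library 4 (adjusted p = 0.00017).

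**Figure D4:**
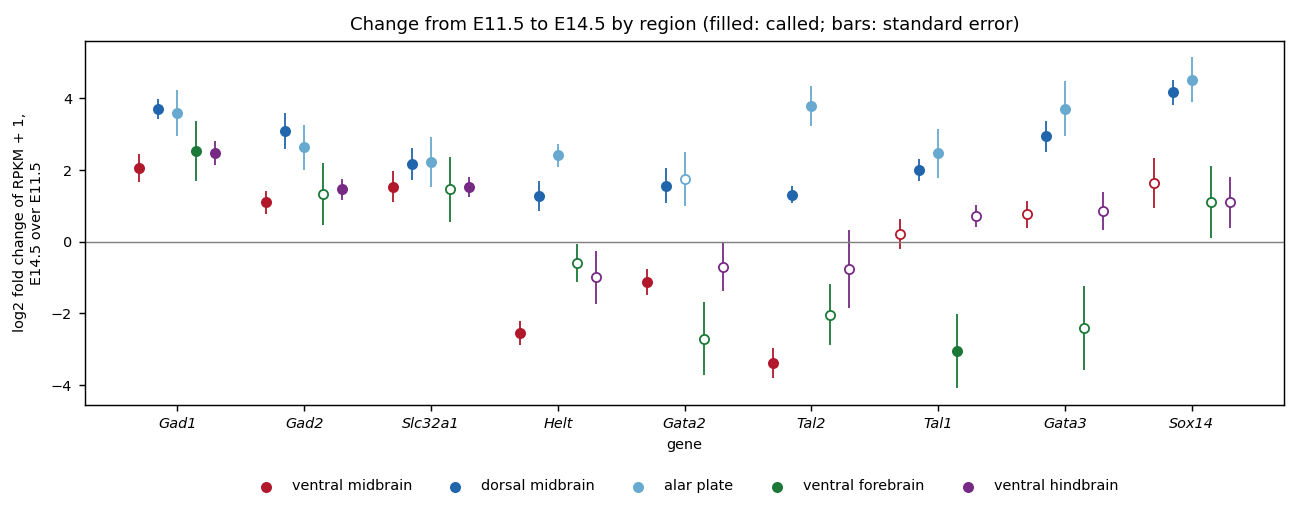
Log2 fold change of RPKM + 1 at E14.5 over E11.5 for each gene and region, with standard errors; filled points were called and open points were not. In ventral midbrain Helt (-2.54), Tal2 (-3.39) and Gata2 (-1.12) lie below 0, while in dorsal midbrain all 9 genes lie above it.

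Counted over the 9 genes, a call needed an adjusted p below 0.05 over all genes and a log2 fold change of at least 1 in size. All 9 passed the filter on low values (a group mean of 1 RPKM or more somewhere among the groups fitted) in all 37 comparisons. At E12.5, 6 of the 9 were lower in ventral midbrain than in the mean of the other 4 regions, where 0.801% of 13733 genes were lower. The 6 were Gad1, Gad2, Slc32a1, Tal1, Sox14 and Tal2, the last at -1.60 ± 0.35 (limma adjusted p = 0.0098), which was not called without ventral midbrain library 1 or 2 (-1.52 and -1.47, adjusted p = 0.065 and 0.071) nor in 1 fit of all 60 libraries (adjusted p = 0.10). The median log2 fold change of the 9 genes was -1.60, beside -0.03 over all genes tested. Against single regions at E12.5, 6 were lower than in dorsal midbrain (3.6% of genes), 7 than in alar plate (1.17%), 4 than in ventral forebrain (0.677%) and 6 than in ventral hindbrain (0.932%), where Helt alone was higher (1.34%). In 1 fit of all 60 libraries, 13 of these 24 calls were made, and leaving out 1 library at a time gave 13 to 29. Without ventral midbrain library 1 the calls ended for Gata2 against dorsal midbrain, for Gad2, Slc32a1 and Tal1 against both alar plate and ventral forebrain, and for Gad2, Helt, Gata2 and Sox14 against ventral hindbrain. Others that ended a call were ventral midbrain libraries 2 and 3, dorsal midbrain 2 and 3, alar plate 1 and 2, ventral forebrain 2 and 3 and every ventral hindbrain library. These comparisons share the ventral midbrain libraries. Every E12.5 alar plate library resembled another region more than its own. The 9 genes were chosen with earlier results of these data known, so the shares over all genes are no independent test of them.

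**Figure D5:**
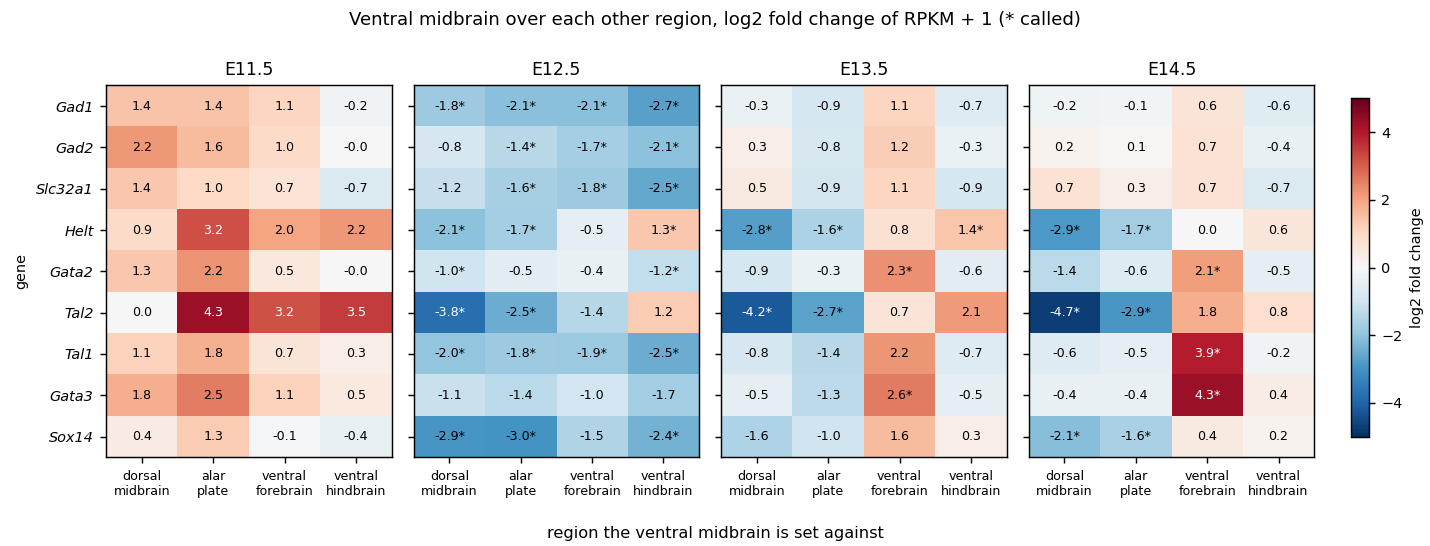
Log2 fold change of RPKM + 1 in ventral midbrain over each other region at each stage, with called values starred. The E12.5 panel holds 23 called values below 0 and 1 above, and the E13.5 and E14.5 panels hold called values below 0 against dorsal midbrain and alar plate only.

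At the other stages few or none of the 9 were called against the mean of the other regions. At E11.5 limma called 0 (0.0217% of 13802 genes), with 2 at an unadjusted p below 0.05, and limma-voom on recovered reads also called 0. Against single regions at E11.5 it called 0 as well, where 0.601% of genes were called against dorsal midbrain and 0% against each of the others, with 1, 3, 2 and 2 of the 9 at an unadjusted p below 0.05 against dorsal midbrain, alar plate, ventral forebrain and ventral hindbrain and 0 by limma-voom. At E13.5 limma called 0 (2.41% of 13851 genes), with 1 at an unadjusted p below 0.05 and 0 by limma-voom. At E14.5 it called 0 (3.28% of 14013 genes), with 5 at an unadjusted p below 0.05 and 2 by limma-voom, which were Tal1 and Gata3.

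Against single regions the later calls fell on few genes. Helt and Tal2 were lower in ventral than in dorsal midbrain at E13.5 (4.07% of genes lower) and, with Sox14, at E14.5 (4.27%). The same genes were lower than in alar plate at E13.5 (0.809%) and at E14.5 (1.04%). Gata2 and Gata3 were higher than in ventral forebrain at E13.5 (2.3%) and, with Tal1, at E14.5 (1.82%). Gata2 at E14.5 had a log2 fold change of 2.09 ± 0.59 (limma adjusted p = 0.039), which was lost without any 1 ventral midbrain library, forebrain library 2 or 4, dorsal midbrain library 3 or alar plate library 4 (1.80 to 2.17, adjusted p 0.051 to 0.13). Against ventral hindbrain, Helt alone was higher at E13.5 (1.15%), and at E14.5 limma called 0 (0.821% of genes), with 2 at an unadjusted p below 0.05 and 0 by limma-voom.

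Averaged over the 4 stages, 3 of the 9 were higher in dorsal midbrain than in the other regions (2.21% of 14692 genes higher): Tal2, Helt and Sox14, the last by 1.16 ± 0.32 (limma adjusted p = 0.0015). In ventral forebrain 4 were lower (0.334%), with log2 fold changes of -1.90 ± 0.32 for Gata3, -1.68 ± 0.27 for Tal1, -1.60 ± 0.31 for Tal2 and -1.34 ± 0.31 for Gata2 (adjusted p = 3.6e-05, 2.1e-05, 0.00034 and 0.0029). The order was not the same at every stage. At E12.5 Gata3, Tal1, Tal2 and Gata2 averaged 23.3, 30.1, 35 and 15.5 RPKM in ventral forebrain. In ventral midbrain they averaged 9.9, 6.97, 11.9 and 11.2 RPKM. At E14.5 the ventral forebrain means were 0.178, 0.785, 1.03 and 0.94 RPKM, against 22.7, 26, 5.79 and 6.24 in ventral midbrain. In ventral hindbrain, averaged over stages, 1 of the 9 was higher (1% of genes) and 2 lower (0.572%), as given above. Limma called 0 in ventral midbrain (1.72% of genes called) and 0 in alar plate (0.619%), with 1 and 2 at an unadjusted p below 0.05 and 0 in both by limma-voom.

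From E11.5 to E14.5 Helt, Gata2 and Tal2 were called lower in ventral midbrain and higher in dorsal midbrain. In ventral midbrain 3 of the 9 were higher (10.4% of 13868 genes higher) and 3 lower (7.41%). Without E11.5 library 4 Gata2 was not called (-0.56), while Gata3 (1.34, adjusted p = 0.00016) and Sox14 (2.64, adjusted p = 0.00017) were called higher. In dorsal midbrain all 9 were higher (7.81% of 13586 genes) and in alar plate 8 (10.9% of 13780 genes), all but Gata2 at 1.76 ± 0.75 (limma adjusted p = 0.079). The alar plate calls rest on E11.5 libraries that each resembled another region more than their own. In dorsal midbrain Helt, at 1.28 ± 0.43 (adjusted p = 0.023), was not called without E11.5 library 4 or 6 or E14.5 library 2 or 4 (0.77 to 1.26, adjusted p 0.051 to 0.098), and Gata2, at 1.57 ± 0.49, and Tal2, at 1.32 ± 0.25, were at 0.77 and 0.97 without E11.5 library 6. In alar plate, Slc32a1 at 2.23 ± 0.69 (adjusted p = 0.024) was not called without E11.5 library 4 or 6 or E14.5 library 2 or 4 (1.48 to 2.29, adjusted p 0.054 to 0.081). In ventral forebrain Gad1 was higher (9.63%) and Tal1 lower (6.74%), with a log2 fold change of -3.05 ± 1.03 for Tal1 (adjusted p = 0.031), a call lost without E11.5 library 4 or 6 or any 1 E14.5 library (-3.21 to -2.42, adjusted p 0.057 to 0.097). In ventral hindbrain Gad1, Gad2 and Slc32a1 were higher (9.98%).

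From E12.5 to E13.5 limma called 1 of the 9 in ventral midbrain, Gad1 (0.0433% of genes higher), while limma-voom on recovered reads called 5 there, Gad1, Gad2, Slc32a1, Tal1 and Sox14. Limma called 0 of the 9 in dorsal midbrain (0% of genes called), alar plate (0%), ventral forebrain (0.0285%) and ventral hindbrain (0%), with 1, 0, 5 and 0 at an unadjusted p below 0.05 and 0 by limma-voom. For the change from E11.5 to E14.5 in ventral midbrain against the mean change of the other regions, 2 of the 9 were called lower, Helt and Tal2 (0.267% of 14590 genes).

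General neuronal genes were also measured over these days. In dorsal midbrain 7 of 8 general neuronal genes were higher at E14.5 than at E11.5 and none lower, among them Snap25 at 50.4 RPKM against 10.9 (log2 fold change 2.12 ± 0.16, limma adjusted p = 4.9e-06). In ventral midbrain 2 of 8 were higher and none lower, with medians over the list of 1.34 in dorsal and 0.61 in ventral midbrain beside -0.08 and -0.04 over all genes tested. Of the 8 radial glia and progenitor genes, 4 were lower in dorsal and 3 in ventral midbrain, with 1 higher in ventral midbrain. The part of these changes in the levels of the 9 genes was not tested.

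Among 17 partners and neighbours of the selector factors, 2 were higher and 4 lower in ventral midbrain than in the other regions at E12.5 (median log2 fold change -0.46, beside -0.03 over all genes). Lmo1, a LIM-only protein of the kind that bridges GATA and Tal factors, was at 5.52 RPKM against 47.8 RPKM (log2 fold change -2.74 ± 0.23, limma adjusted p = 4.8e-06), and Lmo3 at 10.3 against 34.3 RPKM (-1.57 ± 0.17, adjusted p = 4.7e-05). Zfpm2, a GATA cofactor, was at 2.66 against 9.40 RPKM (-1.47 ± 0.27, adjusted p = 0.0032). Tcf12, a bHLH partner, was higher at 168 against 60.6 RPKM (1.56 ± 0.16, adjusted p = 2.2e-05). At E14.5, 1 was higher and 2 lower (median -0.41). Over all stages in dorsal midbrain 2 were higher and 4 lower (median -0.25).

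Of genes of GABA uptake and breakdown, few were called. Of the 6 listed, 5 were tested at E12.5, where 1 was higher in ventral midbrain and none lower (median 0.05 beside -0.03 over all genes). That was Slc6a11, a GABA transporter, at 7.04 against 2.79 RPKM (log2 fold change 1.46 ± 0.31, limma adjusted p = 0.0077), and it was also higher at E14.5, at 13.1 against 6.44 RPKM (1.5 ± 0.36, adjusted p = 0.013). Within ventral midbrain, Slc6a11 rose to 13.1 RPKM at E14.5, against 2.65 RPKM at E11.5 (log2 fold change 2.17 ± 0.39, limma adjusted p = 0.0005).

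Inhibitory genes of other regions were checked there. Of 6 hindbrain inhibitory genes, 3 were higher in ventral hindbrain over all stages and none lower (median 1.12 beside -0.02 over all genes), led by Pax2 at 9.59 RPKM against 0.661 (log2 fold change 2.67 ± 0.20, limma adjusted p = 1.4e-13) and Slc6a5, the neuronal glycine transporter, at 3.36 against 0.0734 RPKM (1.76 ± 0.16, adjusted p = 4.4e-11). Of 11 forebrain GABAergic factors, 10 were tested, and 7 were higher in ventral forebrain and none lower (median 1.37 beside 0 over all genes). Dlx1 was at 25.3 against 0.875 RPKM there (2.87 ± 0.30, adjusted p = 1.5e-09), and Lhx6 at 3.28 against 0.118 RPKM (1.40 ± 0.09, adjusted p = 3.1e-15). Of the 9 glutamatergic genes, 8 were tested at E12.5, with 1 higher and 2 lower in ventral midbrain (median -0.32). Neurog1, a proneural factor, was at 1.41 against 12.6 RPKM (-2.26 ± 0.32, adjusted p = 0.00037). Summed over the glutamatergic list, E12.5 libraries held 139 to 153 RPKM in ventral midbrain and 64.3 to 68.5 in ventral hindbrain. The sums were 139 to 190 RPKM in dorsal midbrain, 199 to 253 in alar plate and 103 to 182 in ventral forebrain.

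All 12 listed dopaminergic genes were higher in ventral midbrain at E12.5, with a median log2 fold change of 4.30. The TH-GFP signal guided dissection, so this list is a check of the pieces and no finding. Of 6 dorsal midbrain and alar genes, 5 were lower in ventral midbrain at E12.5, with Pax7 at 0.0527, 0.325 and 0.133 RPKM in its 3 libraries against 38.2, 42.2 and 19.1 RPKM in dorsal midbrain.

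Likeness of pattern was measured by Pearson correlation over the 20 group means of log2(RPKM + 1), among 14692 genes. For Slc32a1 the first was Gm14204 (0.97), which lies on the minus strand of chromosome 2 (158595472 to 158610723), 43 bases from Slc32a1 and beside the stretch printed above. For Gata3 the first pair were 4930412O13Rik (0.96) and 9230102O04Rik (0.94), both of which overlap it. Nrxn3, a synaptic adhesion gene, was among the first 2 for Gad1 (0.94, beside Rbfox1 at 0.94) and for Gad2 (0.95, beside Gm14204 at 0.95).

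Helt and Tal2 shared their leading genes. Both had Otx2os1 (0.92 each), Otx2 (0.89 and 0.91) and Tmem38b (0.88 and 0.91) among their first 3, and Tmem38b lies 37.3 kilobases from Tal2. Otx2, a forebrain and midbrain factor, averaged 102, 54.5, 35.5 and 27.4 RPKM in ventral midbrain from E11.5 to E14.5, against 146, 138, 185 and 199 RPKM in dorsal midbrain. Sox14 was most like Pnoc (0.93), a neuropeptide precursor gene, and Zfpm2 (0.90). Gata2 was most like Zfpm1 (0.90), a GATA cofactor, and Tal1 like 4930412O13Rik (0.89). The group means share stages, runs and depth.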

How the data were processed

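RPKM values per gene were made by the authors and deposited as 1 table of 60 libraries; Bowtie and the mm10 build are named in the submitters' processing notes, and which tool counted reads, and with what strand setting, is not stated there. Multiplying each RPKM by gene length gave whole reads for 100.0% of values within 0.001. Tests were limma (version 3.58.1, R 4.3.3) on log2(RPKM + 1), with a trend and Benjamini-Hochberg adjustment over all genes whose mean reached 1 RPKM in a group fitted. A call needed an adjusted p under 0.05 and a log2 fold change of at least 1 in size. Region comparisons used the 15 libraries of a stage, and stage comparisons the 12 of a region. The fit was also run on simulated E12.5 counts drawn independently for each library. Those counts hold no mixed dissections or paired libraries, so the run says nothing about such effects. Alternatives were limma-voom on recovered reads, another scaling, no filter, a pseudocount of 0.1, a replicate block, 1 fit of all 60 libraries, and leaving out libraries. The 9 genes and all gene lists were chosen with earlier results of these data known. Named are all 9 genes, up to 4 genes of a list with the smallest adjusted p in a comparison, the 3 genes most alike to each, and Gata1, Klf1, Cdh5 and Kdr; Foxa2, Th, Pax7, Dlx1, Gbx2, Nkx2-1 and Otx2 levels were added as region markers after their values were seen. Floors of 3 reads cover counting error only. Some genes of these lists are not reported here by name.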

Additional observations from a re-analysis of the deposited data

Results flagged for a closer look

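By limma, the change from E11.5 to E14.5 was called different between the ventral midbrain and the mean of the other 4 regions for 2 genes, and both calls were lost under several settings. Helt differed by -3.07 ± 0.77 on the log2 scale (limma adjusted p = 0.0432) and Tal2 by -3.97 ± 0.96 (adjusted p = 0.0359). The log2 fold change of Helt was -2.54 in ventral midbrain, 1.28 in dorsal midbrain, 2.41 in alar plate, -0.58 in ventral forebrain and -0.99 in ventral hindbrain. That of Tal2 was -3.39 in ventral midbrain, 1.32 in dorsal midbrain, 3.79 in alar plate, -2.03 in ventral forebrain and -0.76 in ventral hindbrain, so the other 4 regions did not share a direction. The adjusted p of Helt and Tal2 was 0.139 and 0.186 by limma-voom, 0.154 and 0.117 with a pseudocount of 0.1, 0.0668 and 0.0671 with a replicate block, and 0.0586 and 0.0488 with no filter. Leaving out 1 library ended the Helt call for 20 of 30 libraries (-3.27 to -2.74, adjusted p up to 0.151) and the Tal2 call for 10 of 30 (-4.29 to -3.37, adjusted p up to 0.148), each of the 6 ventral midbrain libraries among them for both genes. Stage and run cannot be told apart in these values, and the E11.5 alar plate libraries each resembled another region more than their own.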

How the results depend on the processing

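No direction of a called result reversed. Counts below are of called members. Against the mean of the other regions at E11.5 (0), 1 fit of all 60 libraries called 2 and leaving out the 4 E11.5 libraries far from their group, an alternative chosen after seeing the data, called 1; at E14.5 (0), limma-voom called 2, a pseudocount of 0.1 called 1, median-ratio scaling 1 and leaving out libraries that resembled another region 2. Against single regions, the fit of all 60 libraries called 7 at E11.5 (0), 13 at E12.5 (24) and 3 at E13.5 (7), and leaving out the 4 far libraries called 3 at E11.5. From E12.5 to E13.5 (1), limma-voom called 5, while no filter, the replicate block and the fit of all 60 called 0. For the change from E11.5 to E14.5 (2), limma-voom, a pseudocount of 0.1 and the replicate block called 0, and no filter 1. Leaving out 1 library gave 0 to 0, 4 to 7, 0 to 0 and 0 to 2 against the mean of other regions by stage, 0 to 0, 13 to 29, 3 to 16 and 7 to 11 against single regions, 10 to 11 over stages, 25 to 31 for E14.5 against E11.5, 0 to 5 for E13.5 against E12.5, and 0 to 0 and 0 to 2 for the changes set against other regions. The causes were not tested. Same-numbered libraries correlated above 0.1 in 11, 18, 21 and 13 of 30 pairs by stage, so they fell short of every pair being above 0.1 and the numbers were not taken to pair them, although the median correlation was 0.252 for same numbers and -0.104 for other numbers at E12.5, and 0.197 and -0.087 at E13.5; the replicate block kept 74 of 87 member calls. Leaving out libraries that resembled another region gave no value for alar plate at E11.5 and E12.5, where none was left. Over all genes, ventral midbrain against other regions gave 3 calls at E11.5 (10 by limma-voom, 22 without the 4 far libraries, 172 in the fit of all 60, 0 with a pseudocount of 0.1 or the replicate block), 485 at E12.5 (755 by limma-voom), 334 at E13.5 (604; 613 with a pseudocount of 0.1) and 460 at E14.5 (766 with that pseudocount). Depth limits Helt at E14.5, where 3 reads were worth up to 1.88 RPKM in ventral forebrain, 1.48 in ventral midbrain and 0.852 in ventral hindbrain.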
